A study of Mus musculus with 192 samples.

Results

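RNA for 9 acute phase proteins, known above all as products of the liver, was followed through the tissues of mice that had flown to the International Space Station and of mice kept on the ground. The genes were chosen by name as Saa1, Saa2, Saa3, Orm1, Orm2, Hp, Crp, Apcs and Itih4, which are 9 of the 54752 genes in the deposited table. The mice were males of 2 genotypes, wild type (WT) and Nrf2-KO, on a C57BL/6 background, and 12 weeks of age per the labels. The paper's methods give this as the age of the flight mice before launch, so they were older at dissection. Nrf2-KO mice carry the Nfe2l2 tm1Ymk allele in every cell and so lack the transcription factor Nrf2, which switches on antioxidant and detoxifying genes. Each genotype was either flown for about a month (FL_WT, FL_KO) or housed in the same kind of cage on the ground (GC_WT, GC_KO). RNA was sequenced from 9 tissues, namely liver (Liv), epididymal white fat (eWAT), interscapular brown fat (iBAT), kidney (Kid), thymus (Thy), spleen (Spl), temporal bone (TpB), mandibular bone (MdB) and cerebrum (Cbr). There were 6 mice in each group, except in Kid and MdB, which had 3. Flight mouse FL04, an Nrf2-KO mouse that the study set aside for an intestinal hemorrhage, was left out, which left 5 FL_KO mice in most tissues and 2 in MdB. FL mice were dissected in California after their return and GC mice later in Japan, so flight, landing, site and season cannot be told apart. The Nrf2-KO mice had been selected for the absence of an intrahepatic shunt, a liver vessel defect that this line can carry.

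In the acute phase response, injury or infection leads macrophages to release interleukin-6 and interleukin-1, and hepatocytes answer by changing which plasma proteins they make. The transcription factors STAT3, NF-kB and C/EBP carry this signal to the liver genes. Saa1 and Saa2 encode the serum amyloid A proteins that ride on high density lipoprotein, and Saa3 encodes a form that is made largely outside hepatocytes, among others by fat cells and macrophages. Orm1 and Orm2 encode alpha-1-acid glycoprotein, Hp encodes haptoglobin, which binds free haemoglobin, and Crp and Apcs encode the pentraxins C-reactive protein and serum amyloid P. In mice Apcs is the pentraxin that responds and Crp hardly does. Itih4 encodes an inter-alpha-trypsin inhibitor heavy chain.

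Saa1, Saa2 and Saa3 are neighbours on chromosome 7 of GRCm38, at 46740497 to 46742980 (minus strand), 46751790 to 46754313 (plus strand) and 46711998 to 46715700 (minus strand), each with up to 4 exons in a transcript. Orm1 and Orm2 lie side by side on the plus strand of chromosome 4, at 63344560 to 63348163 and 63362449 to 63365878. Hp is at 109575128 to 109579172 on the minus strand of chromosome 8. Crp, at 172698055 to 172833031 on the plus strand, and Apcs, at 172893961 to 172895041 on the minus strand, share a stretch of chromosome 1. Itih4 is at 30886476 to 30902353 on the plus strand of chromosome 14. Close copies matter for the measurement. Of all 76-base windows, the length of a read, that occur in Saa1 transcripts, 18.2% occur letter for letter in Saa2, and 17.5% of those of Saa2 occur in Saa1. For Orm1 and Orm2 the share was 13.6% each, for Saa3 0.884%, and for Hp, Crp, Apcs and Itih4 0%. Reads from shared windows are divided between the copies by the quantification, so the split within each pair is less certain than its sum.

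The promoters of Saa1, Saa2 and Saa3, neighbours on 1 chromosome, are shown as a description. Saa1 and Saa2 passed the test in the liver and Saa3 did not. In the comparisons where the pair passed, Saa3 differed in the same direction. A difference between Saa3 and the pair was not tested, nor was any part of the promoters in the liver results. RefSeq (GRCm38.p6) promoters, from 250 bases before to 50 bases after the start, were found for 7 of the 9 genes. Hp and Orm1 had no entry. The stretch from 250 to 51 bases before the start is printed 5′ to 3′ on the strand of the gene, and capitals mark matches on either strand to TTNNGNAA, a short form of the C/EBP site, which reads TTNCNNAA where the match is on the other strand. The coordinates are chr7:46743031-46743230 for Saa1, chr7:46751583-46751782 for Saa2 and chr7:46715727-46715926 for Saa3.
Saa1: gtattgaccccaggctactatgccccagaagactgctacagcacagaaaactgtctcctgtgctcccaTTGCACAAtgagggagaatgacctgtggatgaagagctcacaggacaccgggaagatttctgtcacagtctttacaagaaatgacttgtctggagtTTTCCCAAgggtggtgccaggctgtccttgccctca
Saa2: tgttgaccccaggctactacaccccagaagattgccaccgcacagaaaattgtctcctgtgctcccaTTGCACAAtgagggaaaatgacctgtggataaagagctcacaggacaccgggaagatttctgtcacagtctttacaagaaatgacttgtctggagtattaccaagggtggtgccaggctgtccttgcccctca
Saa3: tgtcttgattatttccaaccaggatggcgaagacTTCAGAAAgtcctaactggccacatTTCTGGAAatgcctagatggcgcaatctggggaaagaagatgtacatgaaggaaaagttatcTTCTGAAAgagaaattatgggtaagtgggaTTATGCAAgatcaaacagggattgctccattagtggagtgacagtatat
The Saa1 and Saa2 promoters were 95.3% identical over 301 aligned columns, and Saa1 and Saa3 51.3% over 316. Both Saa1 and Saa2 held TTGCACAA, 182 to 175 bases before the start in Saa1 and 183 to 176 in Saa2. Saa1 alone of the pair held a second match, TTTCCCAA, 86 to 79 bases before the start. Saa3 held 4 matches, the nearest of them TTATGCAA 99 to 92 bases before the start. Over both strands, 5 of the 7 promoters held a C/EBP match, against 40.7% of all 32851 promoters of this length. The STAT3 letters TTCNNNGAA occurred in 2 of 7 (Apcs and Itih4), against 8.3% of all promoters, and the NF-kB letters GGANTTTCC in 0 of 7, against 1.25%. The motifs may overlap one another. A match describes the letters only, and no match says nothing about the factor outside this window.

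Libraries of Liv held 14433209 to 15318155 counts, eWAT 15325048 to 16046347, Kid 13769210 to 14648004, iBAT 15704377 to 16308175 and Thy 8007523 to 10564704. All 8 hepatocyte markers were present in Liv, all 6 adipocyte markers in eWAT and iBAT and all 5 proximal tubule markers in Kid. Nfe2l2, the targeted gene, fell in Nrf2-KO mice in all 9 tissues on the ground, with a log2 change of -1.48 in Liv (edgeR, adjusted p = 4.77e-10), -1.81 to -1.13 over all tissues but Spl and -0.25 in Spl, and in Liv its TPM was 34.8 to 57.2 in GC_WT, 41.8 to 66.2 in FL_WT, 13.1 to 17.3 in GC_KO and 16.8 to 24.1 in FL_KO. Levels are given in TPM, the share of a gene among all transcripts of a library after correction for transcript length, and differences as log2 fold changes of counts with their standard error (SE). A gene was called where the p-value of edgeR's quasi-likelihood test, adjusted over all genes tested in the tissue, was below 0.05.

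Crp, Itih4, Apcs, Saa1 and Saa2 were liver transcripts, while Hp, Orm1, Orm2 and Saa3 were also present in other tissues. The level of Crp in Liv had a median of 236 TPM (200 to 324 over 23 mice), and no other tissue exceeded 3.97 TPM. Itih4 had a median of 875 TPM in Liv and 2.38 TPM in eWAT, which came next. Apcs had a median of 33.0 TPM in Liv and stayed at or below 0.69 TPM elsewhere. Saa1 and Saa2 had medians of 47.8 and 7.67 TPM in Liv. Thy came next for Saa1, with a median of 1.48 TPM (0.37 to 5.15), and the ranges of Liv and Thy did not overlap. For these 5 genes no tissue reached the lowest liver value.

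Hp, Orm1, Orm2 and Saa3 were shared with fat. The level of Hp was of the same order in eWAT (median 3033 TPM, 2021 to 5271) and in Liv (median 2960 TPM, 1946 to 4561), and the ranges overlapped. Hp in iBAT came next with a median of 484 TPM, followed by TpB with 120 TPM and Spl with 13.0 TPM. Orm1 had a median of 766 TPM in Liv, 364 TPM in eWAT and 103 TPM in iBAT, where Liv and eWAT overlapped and iBAT lay below both. Orm2 followed the same order at a lower level, with 18.6, 5.49 and 1.21 TPM. Saa3 had medians of 8.76 TPM in eWAT (1.90 to 26.2), 6.13 TPM in Liv (3.15 to 10.5) and 3.49 TPM in Thy (0.69 to 8.82), all overlapping. TPM is a share of each library, and Thy libraries were made from total RNA after removal of ribosomal RNA while the others were made from poly(A) RNA, so the place of Thy in these orders is less certain.

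**Figure D1:**
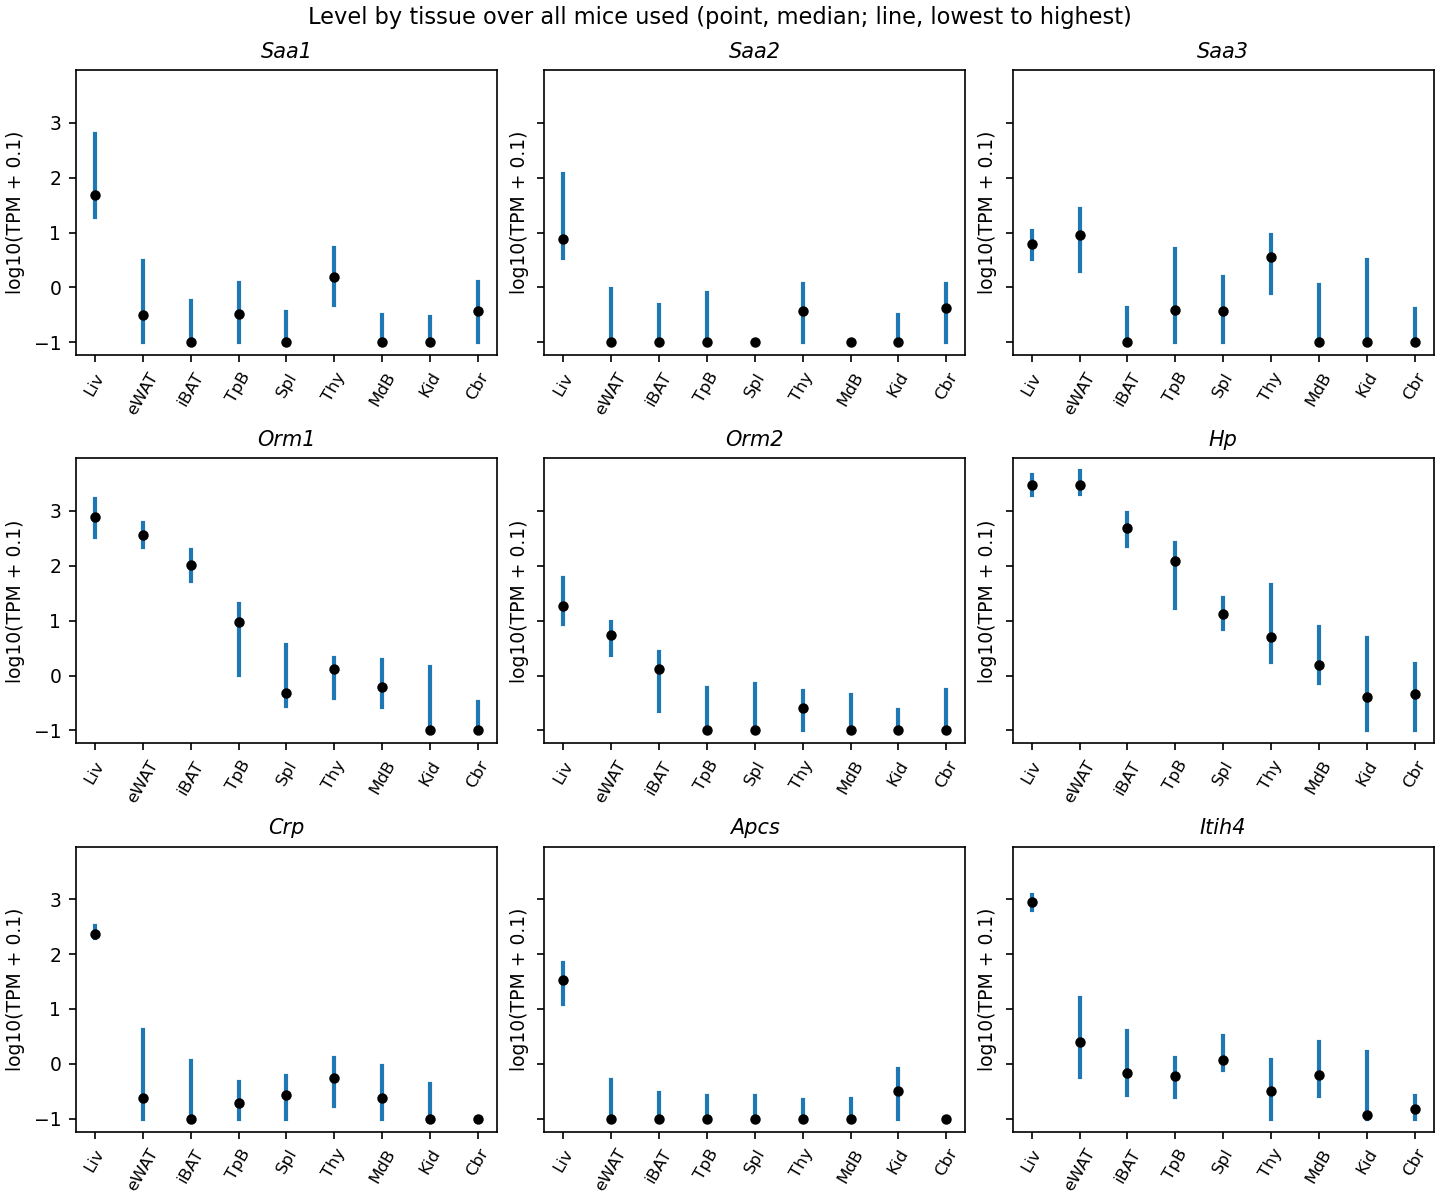
Level of each gene in 9 tissues as log10(TPM + 0.1), with the median as a point and the lowest to highest mouse as a line (23 mice, 12 in Kid and 11 in MdB). Crp, Apcs, Itih4, Saa1 and Saa2 stand high in Liv only, while Hp and Orm1 step down from Liv and eWAT to iBAT and TpB.

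In Liv the 9 genes together took 0.414% ± 0.039 (SD, n = 6) of all TPM in GC_WT, 0.536% ± 0.055 (n = 6) in FL_WT, 0.537% ± 0.125 (n = 6) in GC_KO and 0.602% ± 0.035 (n = 5) in FL_KO. Hp alone made up 51.7% ± 2.9 of that sum in GC_WT and 53.6% ± 5.3 in GC_KO, against 64.3% ± 1.7 in FL_WT and 67.1% ± 3.2 in FL_KO. All 9 genes passed the filter on low counts in Liv. The next paragraphs take the comparisons in turn, and in these whole tissue samples a change in the number of cells of a type cannot be told apart from a change in RNA per cell.

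**Figure D2:**
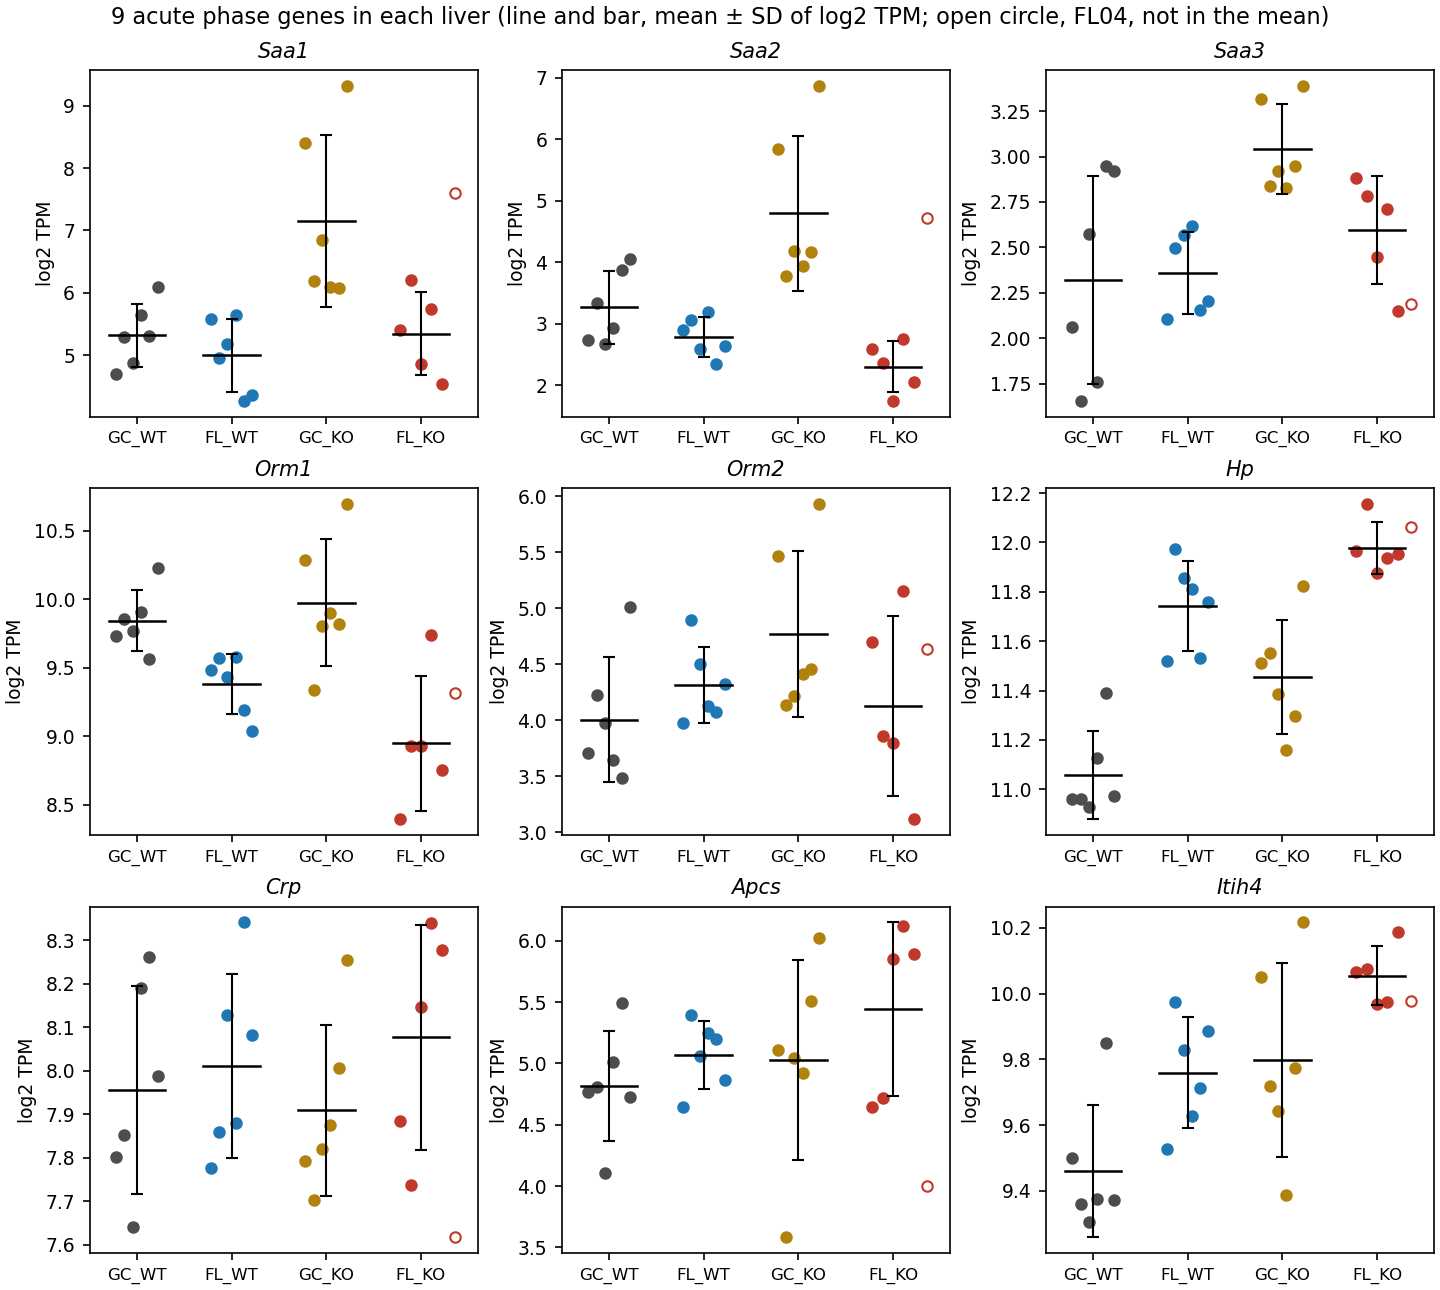
Level of the 9 genes in each liver as log2 TPM, by group, with the mean ± SD of log2 TPM as line and bar and FL04, not in the mean, as an open circle. GC_KO mice GC01 and GC12 stand above the other livers for Saa1 and Saa2, and all flight livers stand above all ground livers of their genotype for Hp.

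The first question was how Nrf2-KO livers differed from WT livers on the ground. Saa1, Saa2 and Hp rose in GC_KO livers, and no member fell. Saa1 measured 25.9, 39.4 and 68.0 TPM (lowest, median and highest) in GC_WT and 67.4, 93.8 and 637 TPM in GC_KO. Mouse GC12 (637 TPM) and mouse GC01 (338 TPM) were far above the other 4 GC_KO livers, which ran from 67.4 to 115 TPM, and 1 GC_WT liver (GC10) lay above the lowest GC_KO liver. The log2 fold change of Saa1 was 2.34 (SE 0.50, adjusted p = 0.00837). Saa2 measured 6.35, 8.89 and 16.7 TPM in GC_WT and 13.7, 18.0 and 117 TPM in GC_KO, with the same 2 mice highest at 117 and 57.4 TPM, and its log2 fold change was 1.95 (SE 0.43, adjusted p = 0.00903). Hp measured 1946, 2003 and 2683 TPM in GC_WT and 2289, 2798 and 3629 TPM in GC_KO, which made a difference of 0.40 on the log2 scale (SE 0.10, adjusted p = 0.0342). The groups overlapped for Hp through GC_WT mouse GC08 (2683 TPM). The share of all tested liver genes called in this comparison was 2.64%, and 3 of the 9 members were called.

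The calls of Saa1 and Saa2 depended on GC01 and GC12 together. Without GC12 alone the log2 fold changes were 1.66 for Saa1 (adjusted p = 0.0338) and 1.28 for Saa2 (adjusted p = 0.0297). Without both mice, a choice made after their values were seen, 0 members were called, with Saa1 at 0.94 (adjusted p = 0.201), Saa2 at 0.69 (adjusted p = 0.146) and Hp at 0.29 (adjusted p = 0.208). With only the GC_WT and GC_KO livers in the fit, the adjusted p of Saa2 was 0.0853. The call of Hp was lost when any of 7 single mice was left out (GC_KO mice 01, 02 and 12 and GC_WT mice 03, 05, 06 and 10), with adjusted p from 0.0648 to 0.0942, and with no filter on low counts (adjusted p = 0.0665).

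The other members did not pass the test in this comparison. For Saa3 the log2 difference was 0.67 (SE 0.21, adjusted p = 0.0977), with 3.15 to 7.73 TPM in GC_WT and 7.09 to 10.5 TPM in GC_KO. Itih4 had 0.35 (adjusted p = 0.0753), Orm2 0.82 (adjusted p = 0.293), Apcs 0.32 (adjusted p = 0.701), Orm1 0.16 (adjusted p = 0.826) and Crp -0.06 (adjusted p = 0.884). GC01 and GC12 held the 2 highest GC_KO values of Saa3, Orm1 and Orm2 as well, with Orm1 at 1249 and 1658 TPM and Orm2 at 44.3 and 61.0 TPM.

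The second question was how WT livers differed after flight. Hp rose in FL_WT livers, and the other 8 genes were not called, against 3.45% of all tested liver genes called. Hp measured 1946, 2003 and 2683 TPM in GC_WT and 2940, 3528 and 4019 TPM in FL_WT, so every flight liver was above every ground liver. The log2 fold change was 0.63 (SE 0.10, adjusted p = 0.00174), 1.61 times in mean TPM. Orm1 measured 757, 901 and 1201 TPM in GC_WT and 527, 704 and 766 TPM in FL_WT, with 1 GC_WT liver within the flight range, and its log2 fold change of -0.52 (SE 0.21) had an adjusted p of 0.186. Itih4 had 0.24 (adjusted p = 0.218). Saa1 (-0.34, SE 0.50), Saa2 (-0.58, SE 0.46), Saa3 (-0.10), Orm2 (0.17), Crp (-0.01) and Apcs (0.17) had adjusted p from 0.587 to 0.984.

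The third question was how Nrf2-KO livers differed after flight. Saa1, Saa2 and Orm1 fell in FL_KO livers, and 0 members rose, against 3.34% of all tested liver genes called. Saa2 measured 6.05, 5.16, 3.36, 6.77 and 4.16 TPM in the 5 FL_KO livers, all below the lowest GC_KO liver at 13.7 TPM. Its log2 fold change was -3.11 (SE 0.49, adjusted p = 7.21e-04). Saa1 measured 42.2, 73.8, 29.2, 53.4 and 23.2 TPM in FL_KO, and 4 of these 5 livers were below the lowest GC_KO liver at 67.4 TPM. Its log2 fold change was -2.39 (SE 0.54, adjusted p = 0.0136). Orm1 measured 337, 487, 489, 857 and 432 TPM in FL_KO and 649, 932 and 1658 TPM (lowest, median and highest) in GC_KO, where mouse FL11 (857 TPM) lay inside the ground range. Its log2 fold change was -1.16 (SE 0.22, adjusted p = 0.00389).

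The call of Saa1 in this comparison did not hold under 4 other settings. With the mouse number as a replicate block Saa1 had a log2 fold change of -1.95 (adjusted p = 0.0888). Its adjusted p was 0.101 with FL04 included (log2 fold change -1.66), 0.110 with only the FL_KO and GC_KO livers in the fit and 0.173 without GC01 and GC12 (log2 fold change -0.99). Without GC12 alone the log2 fold change of Saa1 was -1.72 (adjusted p = 0.0402). Saa2 and Orm1 passed under each of these settings and with any single mouse left out, where Saa2 ran from -3.29 to -2.44 and Orm1 from -1.41 to -1.0.

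The difference of Hp lay on the other side of 0 from those of Saa1, Saa2 and Orm1. The 5 FL_KO livers measured 3996, 4561, 3761, 3918 and 3963 TPM, all above the highest GC_KO liver at 3629 TPM. In expected counts, not scaled to the library, the groups overlapped, with 45659 in FL09 and 46054 in GC12. The log2 fold change was 0.37 (SE 0.11), with an adjusted p of 0.0609 that missed the threshold. The same difference had an adjusted p of 0.0204 by DESeq2, 0.00438 by limma on log2(TPM + 1), 0.0191 with FL04 included and 0.0239 without GC12, but 0.0898 with the replicate block and 0.160 with only the 2 groups in the fit. On the TPM scale the median of all liver genes was 0.14 higher in FL_KO than in GC_KO, against 0.01 on the count scale. The separation of Hp in TPM is read against that shift. Saa3 (-0.53, adjusted p = 0.227), Orm2 (-0.77, adjusted p = 0.314), Apcs (0.22, adjusted p = 0.804), Itih4 (0.10, adjusted p = 0.752) and Crp (0.02, adjusted p = 0.961) were not called.

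Between the flown genotypes edgeR called 0 of 9 members and DESeq2 called 0, against 3.65% of all tested liver genes called. An unadjusted p below 0.05 was found for 1 member and for 17.3% of all tested liver genes. Saa1 had a log2 fold change of 0.29 (SE 0.53), Saa2 -0.58 (SE 0.51), Orm1 -0.48 (SE 0.22, adjusted p = 0.258) and Hp 0.14 (SE 0.11, adjusted p = 0.561). The flight responses of the 2 genotypes were set against each other as an interaction, in which 0% of liver genes and 0 of 9 members were called. An unadjusted p below 0.05 was seen there for 4.03% of liver genes and for 3 members, Saa2 with -2.54 (SE 0.67), Saa1 with -2.05 (SE 0.72) and Orm1 with -0.64 (SE 0.30). A difference in flight response between WT and Nrf2-KO livers was therefore not shown for any member, although calls were made in one genotype and not in the other.

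**Figure D3:**
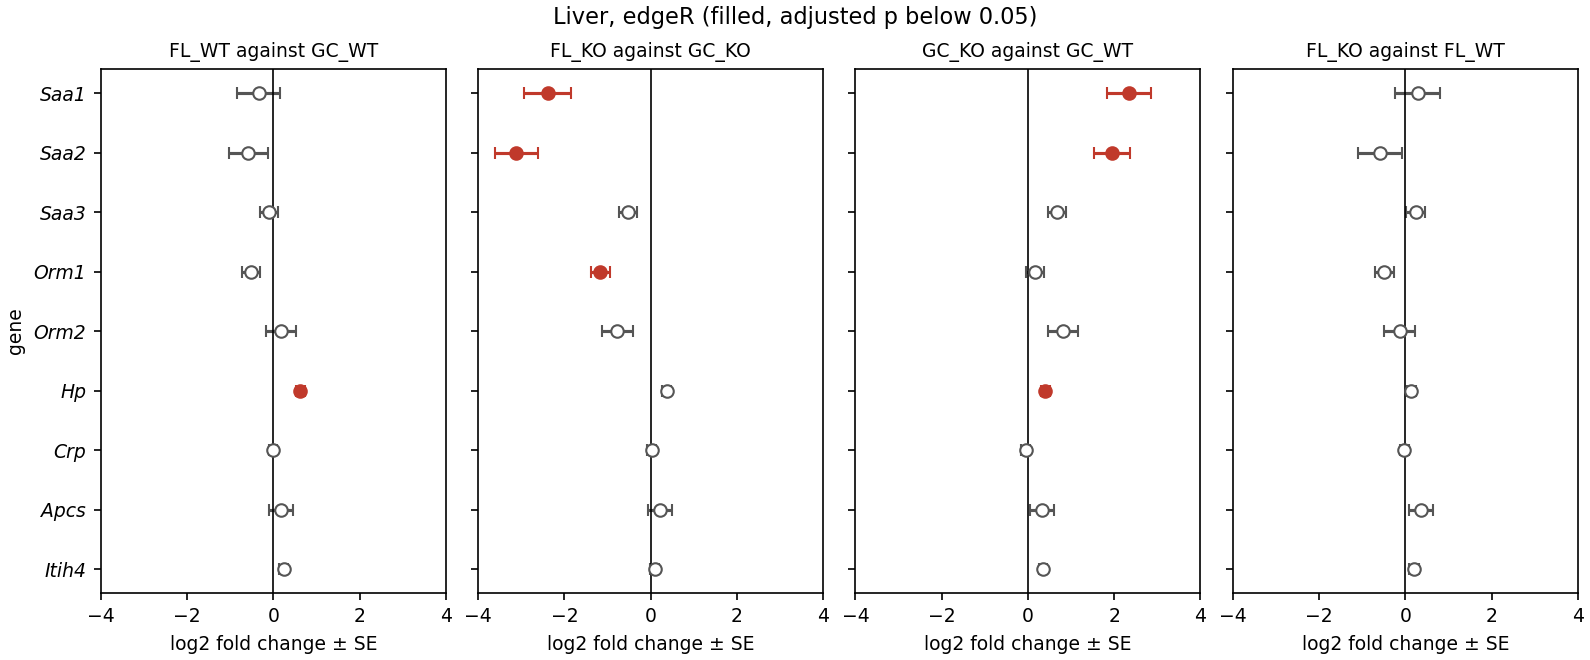
Log2 fold change ± SE of the 9 genes in Liv in 4 comparisons (edgeR), filled where the adjusted p was below 0.05. Saa1 and Saa2 lie at 2.34 and 1.95 in GC_KO against GC_WT and at -2.39 and -3.11 in FL_KO against GC_KO, while Hp lies to the right of 0 in all 4.

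The pentraxins Crp and Apcs were not called in any of the 5 comparisons. Crp measured 200 to 307 TPM in GC_WT, 219 to 324 TPM in FL_WT, 208 to 305 TPM in GC_KO and 213 to 324 TPM in FL_KO. Apcs measured 17.3 to 45.0, 25.1 to 42.1, 12.0 to 65.1 and 25.0 to 69.5 TPM in the same order, so all 4 groups overlapped for both genes. After the mean of each group was subtracted from log2(TPM + 1), Crp and Apcs deviated together over the 23 livers (Pearson r = 0.755, Spearman rho = 0.762). Other members deviated together in the same way, given as a description across mice that share library preparation. Saa1 and Saa2, which also share reads, had r = 0.888 (0.774 without the 2 farthest mice). Hp and Itih4 had r = 0.805 (0.656). Saa1 and Saa2 also went with Orm1 and Orm2, from r = 0.659 for Saa1 and Orm2 (0.482) to 0.730 for Saa2 and Orm2 (0.600). Saa1 and Orm1 had r = 0.704 (0.567), Saa2 and Orm1 0.661 (0.489) and Orm1 and Orm2, which share reads, 0.685 (0.469). Saa1 and Crp had r = 0.065 and Saa3 and Crp r = 0.015.

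The genes outside the list that were most like each member were sought among 8340 liver genes on the same scale. For Saa1 they were Lcn2 (lipocalin 2, an iron carrier binding protein, r = 0.828), Lrg1 (leucine-rich alpha-2-glycoprotein, r = 0.798) and Prg4 (lubricin, r = 0.720), and for Saa2 Fgl1 (r = 0.808), Lrg1 (r = 0.769) and Lcn2 (r = 0.759). Orm2 was nearest to Nlrc5 (r = 0.766), Lrg1 (r = 0.722) and Lcn2 (r = 0.718). Hp was nearest to Vtn, which encodes vitronectin (r = 0.829), Tmem176b (r = 0.827) and Gc, the vitamin D binding protein (r = 0.826). Itih4 was nearest to Cfi (r = 0.877), Vtn (r = 0.867) and complement C3 (r = 0.863). Orm1 was nearest to Tmem186 and Atp11a (r = 0.781 each) and Hsd17b2 (r = 0.731), and Saa3 to Ppl (r = 0.839), Pak4 (r = 0.679) and Ost4 (r = 0.652). Crp was nearest to Oma1 (r = 0.918), Atxn3 and Smc5 (r = 0.90 each). Apcs was nearest to Ormdl1 (r = 0.890), Msantd4 (r = 0.872) and St3gal1 (r = 0.861). All are the highest of 8340 values over 23 mice and carry no test. Without the 2 mice farthest from the median of the member, r for Saa1 was 0.665 (Lcn2), 0.617 (Lrg1) and 0.582 (Prg4). For Saa2 it was 0.585 (Fgl1), 0.539 (Lrg1) and 0.494 (Lcn2). Over the other members it ran from 0.583 (Saa3 and Ost4) to 0.925 (Crp and Oma1).

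Other genes of the acute phase were read from lists drawn up with earlier results of these data known. Of 22 further positive acute phase genes in Liv, 2 rose and 0 fell in FL_WT against GC_WT, namely Serpina3m, a serine protease inhibitor (0.55, adjusted p = 0.0128), and Cp, ceruloplasmin (0.32, adjusted p = 0.0156). In FL_KO against GC_KO 2 rose and 0 fell, Hamp, which encodes the iron hormone hepcidin (0.98, adjusted p = 0.0156), and Cp (0.31, adjusted p = 0.0224). In GC_KO against GC_WT 1 rose, Lcn2 (2.07, SE 0.43, adjusted p = 0.00558), with 1.76, 2.90 and 4.56 TPM in GC_WT and 5.04, 7.91 and 34.6 TPM in GC_KO. GC12 (34.6 TPM) and GC01 (20.6 TPM) were again the highest. After flight Lcn2 measured 5.33 to 11.2 TPM in FL_WT, above every GC_WT liver, and 7.72 to 17.8 TPM in FL_KO, inside the GC_KO range. It was not called in either flight comparison. The median log2 fold change of the 22 genes was 0.31, 0.18 and 0.25 in these comparisons, beside 0.00, 0.01 and 0.01 over all tested genes. Of 10 negative acute phase genes 1 fell after flight in both genotypes, Apom, an apolipoprotein (-0.52, adjusted p = 0.00400, in WT and -0.40, adjusted p = 0.0242, in Nrf2-KO). Of 25 signalling genes 21 could be tested and 1 rose in FL_WT, Nfkbiz, an NF-kB cofactor (0.50, adjusted p = 0.0211). Of 6 glucocorticoid response genes 0 were called in Liv. Beside these counts, 3.45% of all tested liver genes were called in FL_WT against GC_WT. The share was 3.34% in FL_KO against GC_KO and 2.64% in GC_KO against GC_WT. Whether any list differed from these shares was not tested.

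Markers of hepatocytes and of other cells moved in Liv too, and their part in the results was not tested. The 8 hepatocyte markers summed to 79570 to 95630 TPM in GC_WT, 89100 to 105600 TPM in FL_WT, 81510 to 93970 TPM in GC_KO and 92050 to 113400 TPM in FL_KO, and 1 of them, Cps1, the first enzyme of the urea cycle, fell after flight in WT (-0.61, adjusted p = 0.00198) and in Nrf2-KO (-0.65, adjusted p = 0.00125). Of 8 macrophage markers 5 fell in FL_WT (Csf1r, Vsig4, Cd5l, Adgre1 and Clec4f, from -0.98 to -0.73) and 1 fell in FL_KO (Csf1r, -0.76). Of all tested liver genes, 3.45% were called in FL_WT against GC_WT and 3.34% in FL_KO against GC_KO. The summed level of the macrophage markers was 70.3 to 175 TPM in GC_WT, 45.8 to 91.2 TPM in FL_WT, 87.4 to 177 TPM in GC_KO and 70.7 to 132 TPM in FL_KO. Marco, a macrophage scavenger receptor, fell by 3.18 on the log2 scale in GC_KO against GC_WT (adjusted p = 3.67e-04). The sum of the 8 macrophage markers did not fall with it, at a median of 91.7 TPM in GC_WT and 122.8 TPM in GC_KO. The 8 neutrophil markers summed to at most 4.99 TPM in any liver and none passed the filter.

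In eWAT 6 of the 9 members passed the filter, and 0 were called in any of the 5 comparisons. The share of all tested eWAT genes called was 13.4% in FL_WT against GC_WT, 7.71% in FL_KO against GC_KO, 2.74% in GC_KO against GC_WT, 1.06% in FL_KO against FL_WT and 0% for the interaction. The unadjusted p was below 0.05 for 3 members in FL_KO against GC_KO, beside 23.3% of all tested eWAT genes, and for 0 members in each of the others, beside 26.9% of genes in FL_WT against GC_WT. Hp measured 2574, 3481 and 4287 TPM in GC_WT, 2021, 2873 and 4140 TPM in FL_WT and 2755, 3304 and 5271 TPM in GC_KO, and 2752, 2921, 2959, 2858 and 2809 TPM in FL_KO. The log2 fold changes of Hp after flight were -0.33 (SE 0.16, adjusted p = 0.196) in WT and -0.36 (SE 0.17, adjusted p = 0.214) in Nrf2-KO, below 0 in fat where those of the liver were above 0. Orm1 measured 221 to 612 TPM in GC_WT, 280 to 504 TPM in FL_WT, 220 to 469 TPM in GC_KO and 259 to 416 TPM in FL_KO, with log2 fold changes after flight of -0.22 (adjusted p = 0.613) and -0.01 (adjusted p = 0.985). Saa3 spread widely within each group, from 3.68 to 15.6 TPM in GC_WT, 1.90 to 23.8 TPM in FL_WT, 4.58 to 26.2 TPM in GC_KO and 3.23 to 13.7 TPM in FL_KO. Orm2 ran from 2.26 to 9.51 TPM over all mice.

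Crp and Itih4 in eWAT stood beside albumin RNA. Itih4 was highest in mice GC09 (15.9 TPM), FL05 (11 TPM) and GC01 (7.93 TPM), whose albumin gene Alb measured 613, 452 and 266 TPM and was the highest of all 23 mice. Crp in these mice was 3.97, 1.84 and 1.92 TPM, against a median of 0.14 TPM. In FL_KO, where Alb was 16.6 to 95.3 TPM, Itih4 was 1.98 to 2.39 TPM and Crp at most 0.21 TPM, and Saa1 and Saa2 were at 0 in all 5 mice. Mouse FL05 decided a call. Without it, Itih4 was called lower in FL_WT against GC_WT (-1.44, adjusted p = 0.0477) and in FL_KO against GC_KO (-1.49, adjusted p = 0.0438). With it, the log2 fold changes in FL_KO against GC_KO were -1.50 for Itih4 (SE 0.61, adjusted p = 0.138) and -3.25 for Crp (SE 1.3, adjusted p = 0.130). The whole list of 8 hepatocyte markers summed to 5157 to 10600 TPM in GC_WT, 1313 to 3680 TPM in FL_WT, 3863 to 7089 TPM in GC_KO and 1822 to 3242 TPM in FL_KO, most of it Cyp2e1 (1245 to 10480 TPM), which fat also makes. Apob, Ttr, Cps1, Serpina1c and Fgb of that list were at 0 in 5 to 7 of 23 mice. The part of liver RNA in these values was not tested. Hp was between 2472 and 4276 TPM in the 3 mice with the most Alb, inside the range of the others. In GC_WT livers Alb was 41110 to 57850 TPM and Hp 1946 to 2683 TPM. Liver RNA at the Alb level of these fat samples would add little Hp, so its place in the range cannot decide the question.

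**Figure D4:**
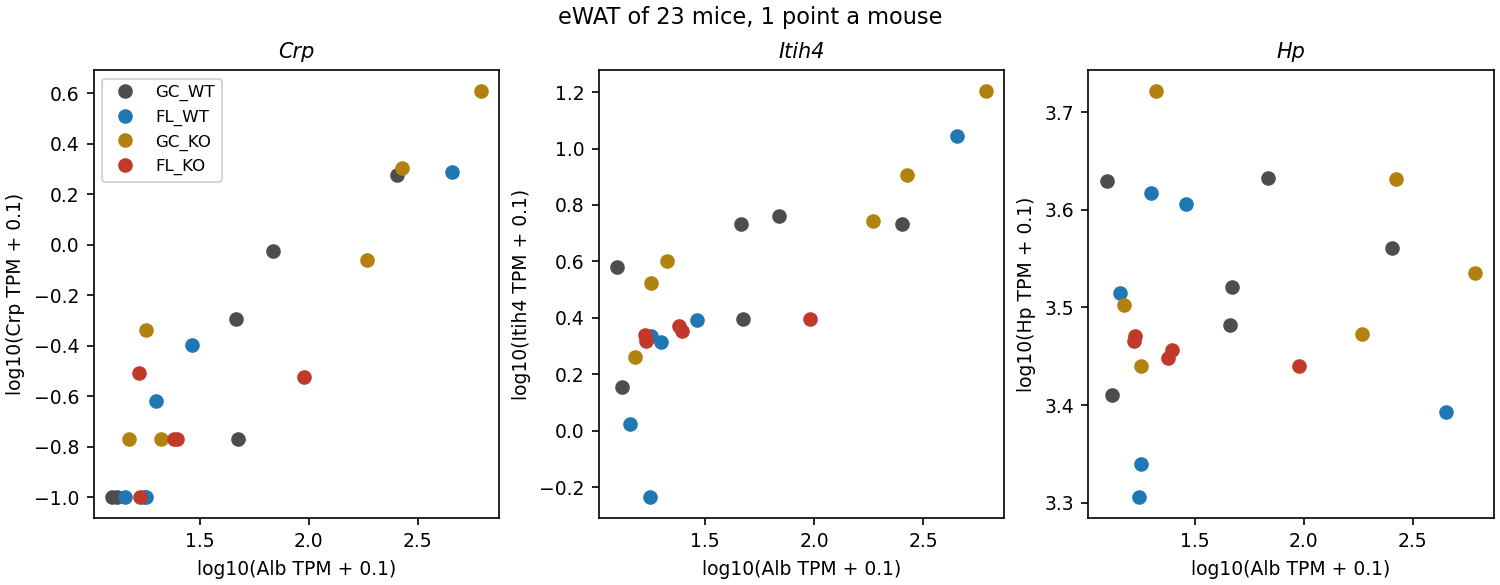
Crp, Itih4 and Hp against Alb in the eWAT of 23 mice, both as log10(TPM + 0.1), 1 point a mouse, coloured by group. Crp and Itih4 are highest in the mice with the most Alb (613 TPM in GC09). Hp in those mice lies inside the range of the others, which cannot decide the part of liver RNA.

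Lcn2 moved in eWAT as it did in Liv on the ground. It rose in GC_KO against GC_WT (1.93, SE 0.43, adjusted p = 0.0157) and fell in FL_KO against GC_KO (-1.71, SE 0.45, adjusted p = 0.0229), with 2.37 to 8.80 TPM in GC_WT, 6.39 to 18.2 TPM in FL_WT, 4.14 to 34.6 TPM in GC_KO and 5.08 to 8.52 TPM in FL_KO. Of the 22 further positive acute phase genes 3 rose and 5 fell in FL_WT against GC_WT, and 0 rose and 2 fell in FL_KO against GC_KO. Those with the smallest adjusted p in FL_WT were Cp (-0.65), Serpina3n, of the same inhibitor family as Serpina3m (-0.54), Cd14, the lipopolysaccharide co-receptor (-0.64), and Mt2, a metallothionein (1.27). Serpina3m, a serine protease inhibitor, fell in FL_KO (-1.83, adjusted p = 0.00127) and in FL_WT (-1.03, adjusted p = 0.0187). Of 9 negative acute phase genes tested in eWAT 2 fell in FL_WT, Trf, transferrin (-0.53, adjusted p = 0.00273), and Rbp4, the retinol binding protein (-0.54, adjusted p = 0.0156). Among 20 signalling genes tested in eWAT 1 fell in FL_WT, Lif, a cytokine of the interleukin-6 family (-0.77, adjusted p = 0.0284). In FL_KO 1 of these 20 fell, Nfkbiz (-0.39, adjusted p = 0.0439), and 0 rose in either genotype. Among 6 glucocorticoid response genes 1 fell in FL_WT, Nr3c1, the glucocorticoid receptor (-0.38, adjusted p = 0.00847), and 0 were called in FL_KO. Beside these counts, 13.4% of all tested eWAT genes were called in FL_WT and 7.71% in FL_KO. Whether any list differed from that share was not tested.

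Levels in Liv and eWAT of the same mouse were compared for the 5 members with a mean of at least 1 TPM in both, after the mean of each group was subtracted (two-sided permutation of mice within groups, 100000 resamples). Over 23 mice Saa3 had r = 0.239 (permutation p = 0.247, adjusted p = 0.934) and rho = 0.325 (permutation p = 0.137, adjusted p = 0.683), and r = 0.276 without the 2 mice farthest from the median in Liv. Hp had r = 0.084 (permutation p = 0.747, adjusted p = 0.934) and rho = 0.064 (permutation p = 0.801), and 0.031 without 2 mice. Orm1 had r = -0.096 (permutation p = 0.652) and rho = -0.186 (permutation p = 0.409), and -0.269 without 2 mice. Orm2 (r = -0.016, rho = 0.047, 0.037 without 2 mice) and Itih4 (r = -0.136, rho = -0.068, 0.074 without 2 mice) had permutation p from 0.612 to 0.947 for r and from 0.789 to 0.844 for rho. No relation between the tissues was detectable at this number of mice.

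In the other 7 tissues 17 of 63 pairs of gene and tissue passed the filter. In FL_WT against GC_WT 1 pair rose and 1 fell, against 5.99% of all tested pairs of gene and tissue called. In FL_KO against GC_KO 3 rose and 1 fell, against 9.74%. In GC_KO against GC_WT (1.38%), FL_KO against FL_WT (1.12%) and the interaction (0%) edgeR called 0 pairs, and the unadjusted p was below 0.05 for 1, 4 and 3 of the 17 pairs, beside 9.87%, 9.57% and 4.60% of all tested pairs. DESeq2 called 2 pairs in FL_KO against FL_WT, Hp in Kid (higher) and Orm1 in iBAT (lower).

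Orm1 fell in brown fat after flight in both genotypes. It measured 126, 138 and 194 TPM in GC_WT and 62.1, 78.1 and 90.0 TPM in FL_WT, with no overlap, and fell by 1.22 on the log2 scale (SE 0.11, adjusted p = 2.68e-07). In Nrf2-KO mice it measured 103, 141 and 178 TPM in GC_KO and 52.6, 53.7, 59.1, 69.5 and 67.7 TPM in FL_KO, again with no overlap, and fell by 1.66 (SE 0.12, adjusted p = 2.28e-09). Many genes changed in this tissue, with 19.2% called in FL_WT and 33.5% in FL_KO. Orm2 had log2 fold changes of -1.01 (adjusted p = 0.0684) and -0.91 (adjusted p = 0.0684) at 0.13 to 2.59 TPM. Hp did not follow Orm1, with 402 ± 147 TPM (SD, n = 6) in GC_WT, 677 ± 170 TPM (n = 6) in FL_WT, 444 ± 34.0 TPM (n = 6) in GC_KO and 616 ± 178 TPM (n = 5) in FL_KO. Its log2 fold changes on the count scale were 0.47 (SE 0.18, adjusted p = 0.0734) and 0.02 (SE 0.19, adjusted p = 0.948). On the TPM scale the median of all iBAT genes was 0.27 higher in FL_WT and 0.38 higher in FL_KO than on the ground, against 0.02 and 0.04 on the count scale, so changes in TPM of this tissue are read against those shifts. Itih4 in iBAT (1.26, adjusted p = 0.0819, in WT) was at 0.17 to 3.85 TPM, beside Alb at up to 125 TPM in FL_WT and 15.4 TPM in GC_WT.

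**Figure D5:**
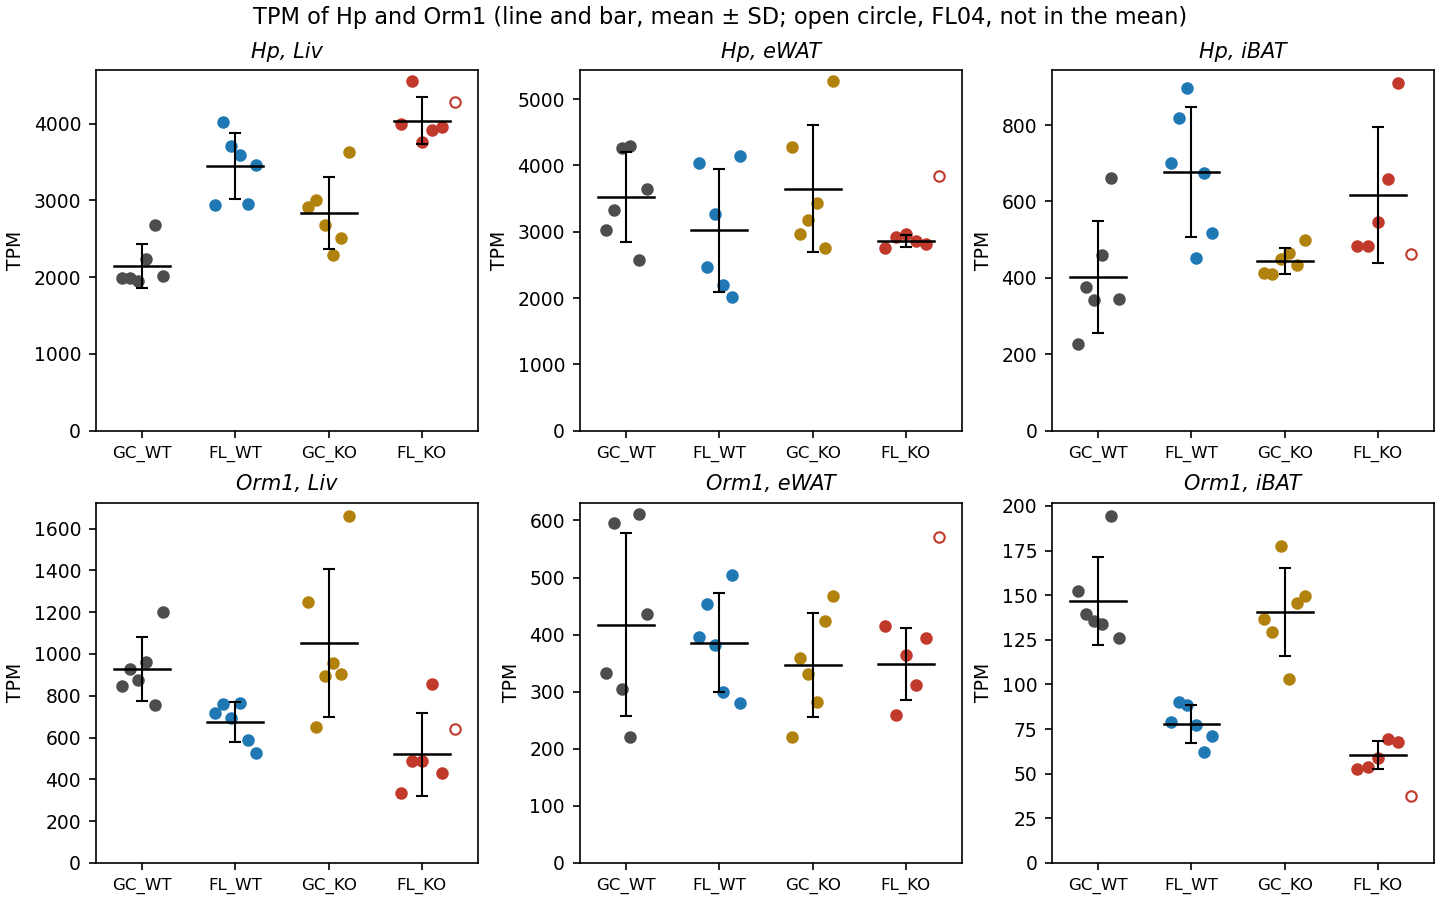
TPM of Hp (top) and Orm1 (bottom) in each mouse in Liv, eWAT and iBAT, with the mean ± SD of each group and FL04, not in the mean, as an open circle. Leaving FL04 aside, after flight Hp is higher in every liver, and Orm1 lower in every brown fat, than in any ground mouse of the same genotype, while in eWAT the 4 groups overlap for both.

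In Thy 5 members passed the filter at low counts, and 22.8% of all tested genes were called in FL_WT and 38.2% in FL_KO. Itih4 rose in FL_WT (2.0, SE 0.60, adjusted p = 0.0183), from 0 to 7 reads a library in GC_WT and 5 to 27 reads in FL_WT. Saa1 (1.29, adjusted p = 0.0130), Crp (1.22, adjusted p = 0.0168) and Saa3 (0.87, adjusted p = 0.0412) rose in FL_KO. Crp rested on 1 to 9 reads a library in GC_KO and 11 to 17 reads in FL_KO, without overlap, and Saa1 on 2 to 8 and 6 to 25 reads. Saa3 measured 0.69, 1.54 and 2.83 TPM in GC_KO and ran from 2.19 to 5.73 TPM in FL_KO. Hp in Thy was not called (1.23, adjusted p = 0.0678, in WT), with 1 FL_WT mouse at 44.8 TPM and the other thymuses at or below 9.72 TPM. The summed macrophage markers were 76.1 to 103 TPM in GC_KO and 141 to 185 TPM in FL_KO, and the summed hepatocyte markers 5.87 to 26.6 and 3.81 to 49.2 TPM. In WT the summed hepatocyte markers were 8.06 to 37.0 TPM in GC_WT and 23.6 to 74.8 TPM in FL_WT, and Alb was 3.55 ± 5.09 and 13.8 ± 9.55 TPM (SD, n = 6 each). Their part in these calls was not tested. Without FL_KO mouse FL09, Crp was the 1 member still called in FL_KO. By DESeq2, and with only the 2 groups in the fit, Itih4 was not called in FL_WT.

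The remaining tissues had no called member, and few genes of any kind were called there. After flight the share called was 0% in TpB and MdB in both genotypes. In WT and Nrf2-KO it was 0.119% and 0.159% in Kid, 2.26% and 0.668% in Spl and 0.0244% and 0.0061% in Cbr. Between genotypes the shares ran from 0.198% in TpB to 1.83% in Kid. In TpB Hp measured 16.8 to 260 TPM and Orm1 0.93 to 19.7 TPM over all mice. Neither was called there (adjusted p from 0.978 to 1.0 over the 4 group comparisons). Mean Hp was 147 TPM in GC_WT and 91.7 TPM in GC_KO and mean Orm1 13.95 and 6.81 TPM, with overlapping ranges. This bone carried neutrophil markers at 885 to 13060 TPM in sum, and neutrophil precursors are known to make haptoglobin. The part of these cells in the Hp level of TpB was not tested. In Spl Hp measured 10.9 ± 4.1 TPM (SD, n = 6) in GC_WT and 16.6 ± 6.5 TPM (n = 6) in FL_WT (0.60, SE 0.26, adjusted p = 0.244). In Kid, with 3 mice a group, Hp alone could be tested, and all 9 genes stayed at or below 4.80 TPM in all 12 mice. The highest Hp (4.80 TPM) and Itih4 (1.56 TPM) were in FL_KO mouse FL11, whose Alb was 47.6 TPM against 3.04 to 7.47 TPM in the other 11, and the part of liver RNA there was not tested. For Hp in Kid the log2 difference was 3.89 (SE 1.11, adjusted p = 0.118) in FL_KO against FL_WT. In MdB the log2 difference of Hp was 2.08 (SE 0.68, adjusted p = 0.439) in FL_WT against GC_WT and that of Itih4 was 2.14 (SE 0.69, adjusted p = 0.439). The summed hepatocyte markers there were 32.9 to 39.7 TPM in GC_WT and 40.0 to 226 TPM in FL_WT, and their part was not tested. In Cbr 0 of the 9 genes could be tested, and none exceeded 1.51 TPM.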

How the data were processed

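RNA was sequenced from 9 tissues, as poly(A) RNA except in Thy, where ribosomal RNA was depleted, as single reads of 76 bases. Per the paper's methods and the submitters' processing notes, the authors aligned reads to mm10 with STAR 2.6.1 and quantified GENCODE genes with RSEM 1.3.1. The expected counts and the TPM were used as deposited by the authors, and 192 FPKM columns were not used. The strand setting of the counting was not given in the sources used here. Genes were 1 row each, and members were matched by gene name.

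Expected counts were rounded and fitted per tissue with edgeR 4.0.16 in R 4.3.3 (TMM factors, filterByExpr, quasi-likelihood test, all 4 groups in 1 fit, FL04 left out), and p-values were adjusted by Benjamini-Hochberg over all genes tested in the tissue. The scripts were tested on simulated counts. Other settings tried were a fit with DESeq2 1.42.0, tests by limma 3.58.1 of TPM on a log2 scale with a pseudocount of 1 or 0.1 (genes with a group mean of at least 1 TPM), RLE factors, no filter, FL04 included, fewer groups, a replicate block and 94 fits that left out 1 mouse. Libraries held 8007523 to 16308175 counts. Reads are given for only some of the values that rest on few of them.

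The members and the gene lists were chosen with earlier results of these data known. All 9 members were named in Liv, eWAT and Kid, and elsewhere where called or at a group mean of at least 10 TPM. From the lists at most 4 called genes per comparison were named, in Liv and eWAT, except that the called macrophage and hepatocyte markers and Serpina3m in eWAT of FL_WT were named after their values were seen. For likeness the 3 genes of highest r were sought per member. Flight and ground mice with 1 number are different animals. Same-numbered livers of Nrf2-KO mice deviated together (r from 0.202 to 0.338 in 5 of 5 pairs). The main fit, from which the reported calls come, had no pairing. The number entered as a replicate block only in one of the other settings. Labels name separate mice as replicates.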

Additional observations from a re-analysis of the deposited data

Results flagged for a closer look

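Of 58 sets of 1 member in 1 group and tissue, 3 held a mouse set apart from the rest of its group by Dixon's test, which by chance alone marks some sets. Orm2 in the liver of GC_WT mouse GC10 was 32.3 TPM, against 11.2 to 18.7 TPM in the other 5, a gap of 0.644 of the range where the limit was 0.625. Itih4 in the liver of GC_WT mouse GC08 was 922 TPM, against 632 to 724 TPM (gap 0.682). Itih4 in the eWAT of FL_WT mouse FL05 was 11 TPM, against 0.48 to 2.36 TPM (gap 0.821), and Alb in that sample was 452 TPM.

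FL04, the flight Nrf2-KO mouse left out of the comparisons, stood above both Nrf2-KO groups in eWAT for 3 members. Saa3 was 40.8 TPM there, against 3.23 to 13.7 TPM in FL_KO and 4.58 to 26.2 TPM in GC_KO. Orm1 was 571 TPM, against 259 to 415 and 220 to 469 TPM. Orm2 was 15.1 TPM, against 2.69 to 9.51 and 2.26 to 7.95 TPM. In Liv its Saa1 (193 TPM) and Saa2 (26.2 TPM) were above the FL_KO range and inside the GC_KO range, and its Crp (196 TPM) and Apcs (16 TPM) were below the FL_KO range.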

How the results depend on the processing

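Of 586 recomputed counts of called members, 573 stayed within 1.5 times the reported count. Many of them started from 0, including every count in eWAT and every interaction, where no gene of any kind was called. In the other 7 tissues a fit without 1 mouse recomputed the tissue of that mouse only. The tally is therefore a weak measure of stability. In Liv the count in GC_KO against GC_WT went from 3 to 0 without mice GC01 and GC12, a choice made after seeing the data. In eWAT, where 0 members were called, limma on log2(TPM + 0.1) called 1 (Saa1, lower) in FL_KO against GC_KO, and leaving out 1 mouse gave 0 to 1 in each flight comparison. In the other 7 tissues, the count in FL_WT against GC_WT went from 2 to 1 by DESeq2 and to 1 with only the groups compared. In FL_KO against GC_KO it went from 4 to 2 with the replicate block and was 2 to 4 when 1 mouse was left out (2 without Thy mouse FL09). In FL_KO against FL_WT it went from 0 to 2 by DESeq2, 1 without the filter, 1 with FL04 included and 1 with only the groups compared, and was 0 to 1 when 1 mouse was left out (1 without MdB mouse FL06, Hp lower). The cause was not tested. Of 221 recomputed fold changes of called liver members, 205 kept their direction and call and 16 kept the direction but lost the call. The replicate block ended the call of Saa1 in FL_KO against GC_KO (-1.95, adjusted p = 0.0888) and of no other liver member in the flight comparisons, the only ones it could be run for. Outside Nrf2-KO livers same-numbered mice correlated to differing degrees. Above 0.1 were 3 of 6 pairs of WT livers (0.015 to 0.301) and 3 of 5 pairs in iBAT of Nrf2-KO mice (0.05 to 0.272). The range was -0.462 to 0.726 in TpB of Nrf2-KO mice and -0.071 to 0.078 in Thy of WT mice. Whether the numbers mark a pairing in these tissues was not tested. Between Liv and eWAT of the same mouse, r of Orm2 turned from -0.016 to 0.053 with FL04 included and r of Itih4 from -0.136 to 0.105 on log2 CPM, and none of these passed the test. Depth limits Saa3 in Liv (17 to 51 reads a library), Saa2 in FL_KO livers (17 to 31 reads) and the members in Thy. It also limits Crp in eWAT, with 0 to 3 reads in FL_KO and 1 to 54 in GC_KO. Hp in Kid rested on 0 to 3 reads in FL_WT and 5 to 59 in FL_KO.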
